A study of Mus musculus with 4 samples.

Results

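The transcripts described here encode 9 proximal components of T cell receptor (TCR) signalling: the CD3 chains Cd3d, Cd3e and Cd3g, the kinases Lck and Zap70, the adaptors Lat, Lcp2 and Skap1, and the signalling regulator Themis. They were named as a list, looked up by symbol, and all 9 were found in each of 4 single-cell libraries of mouse colon intraepithelial lymphocytes, among 12698 genes listed in all 4 libraries and 15301 listed in any. The TCR chains have no signalling tails of their own. Contact with antigen lets Lck phosphorylate the tails of the CD3 and ζ chains, ZAP-70 docks there, and ZAP-70 then phosphorylates the membrane adaptor LAT and its partner SLP-76, the product of Lcp2, from which calcium and Ras signals start. THEMIS binds the LAT adaptor complex and is known from thymocyte development, and SKAP1 couples the receptor to integrin adhesion. Intraepithelial lymphocytes are T cells within the gut lining, and many of them carry CD8 as αα homodimers, without the β chain that Cd8b1 encodes.

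The sorts were live CD3+ CD8α+ cells with TCRγ, read here as TCRγδ from the sample titles, or with TCRβ, each from Tcf7KO and from Tcf7WT mice. Every library carries the strain label E8IcreTcf7fl/fl, a floxed Tcf7 with a Cre recombinase driven by the E8I enhancer of Cd8a. Only the genotype label therefore tells Tcf7KO and Tcf7WT apart. The number of mice pooled, their age and the deleted part of Tcf7 are not given in the sources used here. Each group was 1 library made with a droplet-based 3′ kit, so no difference below was tested against a spread between replicates.

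The libraries held 1511 (TCRγδ Tcf7KO), 1888 (TCRγδ Tcf7WT), 5785 (TCRβ Tcf7KO) and 7603 cells (TCRβ Tcf7WT), with 6195292 to 20289960 unique molecular identifiers (UMIs, each standing for a captured transcript). Median UMIs per cell were 4366, 3188, 2860 and 2431 in that order. Tcf7 stood at 14.6 and 45.7 CPM (a gene's UMIs scaled to 1000000 UMIs of its library) in TCRγδ Tcf7KO and Tcf7WT cells, and at 107 and 148 CPM in TCRβ Tcf7KO and Tcf7WT cells. These values do not check the genotype labels, since the 3′ end that was counted may not be in the deleted part. Trdc, the TCRδ constant gene, followed the sort labels. It was at 1905 and 1946 CPM in the TCRγδ libraries against 14.7 and 15.4 CPM in the TCRβ libraries, Tcf7KO first. Trac, the TCRα constant gene, was lower in the TCRγδ libraries but not absent, at 395 and 482 CPM against 902 and 970 CPM. Of the TCRβ constant genes, Trbc2 was at 1087 and 1135 CPM against 1834 and 1933 CPM. Trbc1 did not separate the sorts, at 874 and 666 CPM in the TCRγδ libraries against 832 and 789 CPM in the TCRβ libraries. Pairs of libraries shared 1 to 10 cell barcodes. Markers of other cell types were at 0 or present in part. Of 7 myeloid markers Lyz2, Csf1r and Adgre1 had no UMI in any library, while Fcer1g and Tyrobp carried most of a summed 2627 to 5165 CPM and Itgax was at 12.0 to 52.5 CPM. Of 5 B and plasma cell markers Ms4a1 and Mzb1 had none, and Cd79b carried most of a summed 27.4 to 38.1 CPM. Of 4 stromal markers Col3a1 and Dcn had none, and Pecam1 carried most of a summed 7.62 to 19.5 CPM. Of 3 mast cell markers Mcpt1 had none, and Kit carried most of a summed 128 to 180.5 CPM. The part of these markers in the results was not tested. Epithelial RNA was present. The summed level of 14 epithelial markers was 1970 and 747 CPM in TCRγδ Tcf7KO and Tcf7WT and 279.8 and 389 CPM in TCRβ Tcf7KO and Tcf7WT, and 20, 20, 4 and 11 cells rich in these markers held 6.19%, 1.80%, 0.608% and 0.642% of the UMIs.

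The genes lie on 6 chromosomes of GRCm38 (GENCODE M21), with the CD3 genes side by side: Cd3g at chr9:44969572-44980431 on the minus strand, Cd3d at chr9:44981786-44987339 on the plus strand and Cd3e at chr9:44998740-45009627 on the minus strand. Lat lies at chr7:126363824-126369570 on the minus strand and Themis at chr10:28668360-28883818 on the plus strand. Zap70 lies at chr1:36761798-36782818 (plus), Lck at chr4:129548344-129573641 (minus), Lcp2 at chr11:34046920-34092295 (plus) and Skap1 at chr11:96464593-96759130 (plus). An exon of Cd3e, Lcp2, Skap1 and Themis overlaps a gene annotated on the opposite strand, 2010300F17Rik for Skap1 and 4930519F09Rik for Themis, which are both listed in the matrices. Whether the counting used strand is not given in the sources used here, so reads from these partners cannot be told apart from reads of the named gene.

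TCF-1, the product of Tcf7, belongs to the TCF/LEF factors, whose recognition sequence has the core CTTTGA, read on the opposite strand as TCAAAG. The 250 bases before the RefSeq start (GRCm38.p6) were searched for it on both strands, and 8 of the 9 genes had such a window, all except Skap1. The windows of Lat and Themis are shown because these were the members that differed most between libraries, and that of Cd3d because it alone held more than 1 match. Each is written 5′ to 3′ on the gene's own strand, with matches in capitals.
Lat, chr7:126369569-126369818, minus strand: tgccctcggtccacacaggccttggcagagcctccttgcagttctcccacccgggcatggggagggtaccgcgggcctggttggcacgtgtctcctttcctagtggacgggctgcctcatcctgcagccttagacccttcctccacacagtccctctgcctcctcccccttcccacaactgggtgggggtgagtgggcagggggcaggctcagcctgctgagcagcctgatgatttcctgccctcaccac
Themis, chr10:28668110-28668359, plus strand: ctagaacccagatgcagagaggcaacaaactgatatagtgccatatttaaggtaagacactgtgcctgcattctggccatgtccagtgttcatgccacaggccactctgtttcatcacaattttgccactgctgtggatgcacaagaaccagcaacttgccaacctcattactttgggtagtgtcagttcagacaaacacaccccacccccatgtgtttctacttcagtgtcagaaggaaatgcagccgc
Cd3d, chr9:44981536-44981785, plus strand: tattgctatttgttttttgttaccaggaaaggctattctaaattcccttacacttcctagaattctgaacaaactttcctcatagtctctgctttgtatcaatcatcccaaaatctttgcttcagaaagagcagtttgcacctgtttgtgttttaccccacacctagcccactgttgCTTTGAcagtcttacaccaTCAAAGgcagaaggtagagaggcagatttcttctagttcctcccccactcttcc
The Lat and Themis windows held no match. The Cd3d window held 2, which start 73 and 54 bases before the gene's start, and the first Zap70 window and the Lcp2 window held 1 each, which start 21 and 65 bases before it. The 8 genes had 12 windows in all, of which 3 held a match, while 13.8% of 32851 mouse windows of the same length held one. A match is a description of these letters and not a bound site, and its absence says nothing about binding elsewhere.

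All cells were sorted on CD3 protein, and the CD3 transcripts differed little between the 4 libraries. Cd3g, the γ chain, stood at 3496 and 3257 CPM in TCRγδ Tcf7KO and Tcf7WT cells and at 3089 and 2970 CPM in TCRβ Tcf7KO and Tcf7WT cells. No neighbours in that order had overlapping 95% Poisson intervals, although the whole order spans less than 1.5-fold. Cd3e, the ε chain that pairs with both of the others, stood at 1972 and 1660 CPM in TCRγδ Tcf7KO and Tcf7WT cells and at 1647 and 1403 CPM in TCRβ Tcf7KO and Tcf7WT cells. TCRγδ Tcf7WT and TCRβ Tcf7KO did not differ beyond their intervals. Cd3d, the δ chain, stood at 1261 and 1296 CPM in TCRγδ Tcf7KO and Tcf7WT cells and at 1256 and 1476 CPM in TCRβ Tcf7KO and Tcf7WT cells. TCRβ Tcf7WT was the highest, and the other libraries overlapped with their neighbours. All of these intervals cover counting error only, and so do those of ratios below.

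The kinases were as even. Zap70 was at 377 and 327 CPM in TCRγδ Tcf7KO and Tcf7WT cells and at 314 and 303 CPM in TCRβ Tcf7KO and Tcf7WT cells, with TCRγδ Tcf7KO above the rest and the others overlapping with their neighbours. Lck, which also binds the tail of the CD8α coreceptor, was at 523 and 548 CPM in TCRγδ Tcf7KO and Tcf7WT cells and at 617 and 603 CPM in TCRβ Tcf7KO and Tcf7WT cells. The genotypes overlapped within each sort and the sorts did not overlap.

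Among the adaptors, Lat varied most. It stood at 39.4 CPM (34.9 to 44.3) in TCRγδ Tcf7KO cells, 103 CPM (94.8 to 111) in TCRγδ Tcf7WT cells, 137 CPM (131 to 142) in TCRβ Tcf7KO cells and 158 CPM (153 to 164) in TCRβ Tcf7WT cells, so no intervals overlapped and TCRγδ Tcf7KO was the lowest by a wide margin. Lcp2 was at 178 and 211 CPM in TCRγδ Tcf7KO and Tcf7WT cells and at 223 and 236 CPM in TCRβ Tcf7KO and Tcf7WT cells. TCRγδ Tcf7KO was again the lowest, without overlap with the next. Skap1 was at 279 and 296 CPM in TCRγδ Tcf7KO and Tcf7WT cells, which overlapped, and at 355 and 410.1 CPM in TCRβ Tcf7KO and Tcf7WT cells, which did not. Themis, the scarcest of the 9 in UMIs, had 51, 139, 364 and 360 UMIs. Its level was 7.10 CPM (5.29 to 9.33) in TCRγδ Tcf7KO cells, 22.4 CPM (18.9 to 26.5) in TCRγδ Tcf7WT cells, 19.8 CPM (17.8 to 21.96) in TCRβ Tcf7KO cells and 17.7 CPM (16.0 to 19.7) in TCRβ Tcf7WT cells. Its TCRγδ Tcf7KO level lay below all others, which overlapped with their neighbours.

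**Figure D1:**
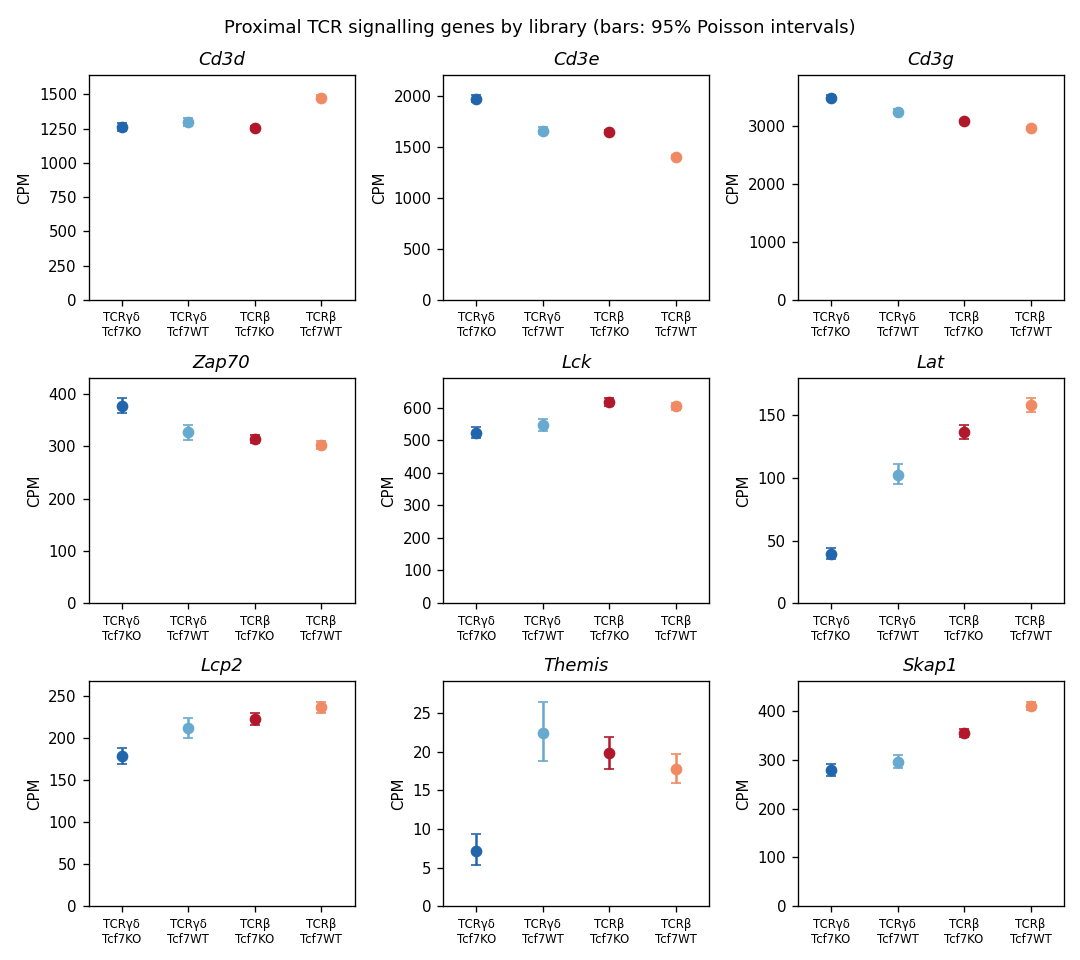
CPM of each of the 9 genes in the 4 libraries, 1 panel a gene, with the CPM axis starting at 0 and bars for 95% Poisson intervals. Lat (39.4 CPM) and Themis (7.10 CPM) are low in TCRγδ Tcf7KO cells, while the CD3 chains, the kinases, Lcp2 and Skap1 keep to a narrow band.

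Cells were thinned to 1624 UMIs each to compare the share of cells with a UMI at equal depth, which left out 28, 300, 489 and 759 shallower cells. Cd3g was detected in 97.9% of TCRγδ Tcf7KO, 98.4% of TCRγδ Tcf7WT, 97.8% of TCRβ Tcf7KO and 97.5% of TCRβ Tcf7WT cells, against 6.38% of 47 cells rich in epithelial markers, which had a median of 13905 UMIs before thinning. Lat was detected in 6.68% of TCRγδ Tcf7KO cells (5.46 to 8.07, exact Clopper-Pearson interval), 15.8% of TCRγδ Tcf7WT cells (14.0 to 17.7), 19.1% of TCRβ Tcf7KO cells and 21.4% of TCRβ Tcf7WT cells. Without thinning these shares were 16.1%, 25.3%, 30.8% and 30.4%. Lat and Themis each had a UMI in 0 of the 47 cells rich in epithelial markers, and such a count of 0 still allows a share of 6.38% (3 counts) or 7.55% (upper Clopper-Pearson limit). The Lat share in TCRγδ Tcf7KO cells lies between these limits, so it cannot be told from background by this measure, and the Lat shares of the other libraries lie above both. The thinned Themis shares of 1.62%, 3.09%, 3.15% and 2.70% in the 4 libraries lie under both, so they are not read as expression. Summed over all 55 epithelial-rich cells at full depth, a count of 0 allows 3.76 CPM of Themis (3 counts) or 4.62 CPM (upper Poisson limit). Lat had 1 UMI there, 1.25 CPM with an upper limit of 6.98 CPM. In summed counts both genes lay above these limits in every library, Lat in TCRγδ Tcf7KO cells included. A mean of 4.55 (TCRγδ Tcf7KO), 4.63 (TCRγδ Tcf7WT), 4.75 (TCRβ Tcf7KO) and 4.80 (TCRβ Tcf7WT) of the 9 genes had a UMI in a thinned cell.

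Between genotypes in the TCRγδ sort, Lat and Themis were lower in Tcf7KO cells, and the other 7 genes were less than 1.5-fold apart. Lat was 2.61-fold lower (log2 ratio -1.38, -1.59 to -1.18), on 283 UMIs in Tcf7KO and 636 in Tcf7WT. Themis was 3.16-fold lower (-1.66, -2.15 to -1.19). With cells thinned its ratio was -1.02, still past 1.5-fold. Of all genes with at least 50 UMIs over both libraries, 4.97% were at least 1.5-fold lower and 6.9% at least 1.5-fold higher, beside 2 and 0 of the 9. The median log2 ratio was -0.07 over the 9 genes and -0.03 over all genes tested. Cd3e (0.25, 0.21 to 0.29), Zap70 (0.21, 0.12 to 0.29) and Cd3g (0.10, 0.08 to 0.13) had positive ratios, and Lcp2 a negative one (-0.25, -0.36 to -0.14). Lck (-0.07), Skap1 (-0.09) and Cd3d (-0.04) lay closest to 0, and their signs turned under other scalings or cell filters. Epithelial RNA and depth per cell were also higher in the TCRγδ Tcf7KO library. Without the cells rich in epithelial markers the ratios were -1.31 for Lat and -1.59 for Themis. In summed counts, fewer cells with a transcript and less of it per cell cannot be told apart.

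Between genotypes in the TCRβ sort, none of the 9 genes was 1.5-fold apart. The background here was 3.8% of tested genes at least 1.5-fold lower and 2.13% at least 1.5-fold higher, and the median ratio was 0.03 over the 9 genes and -0.07 over all genes tested. Cd3d had the lowest ratio (-0.23, -0.26 to -0.21), followed by Lat (-0.21, -0.29 to -0.14) and Skap1 (-0.21, -0.25 to -0.16), while Cd3e had the highest (0.23, 0.21 to 0.25). Themis was 0.16 (-0.05 to 0.37), with an interval that holds 0. Lcp2 was -0.09, Cd3g 0.06, Zap70 0.05 and Lck 0.03.

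The genotype ratios of the sorts differed most for the same pair of genes. The log2 ratio in the TCRγδ sort minus that in the TCRβ sort was -1.17 for Lat (-1.39 to -0.96) and -1.82 for Themis (-2.33 to -1.31). Both intervals leave out 0, for counting error alone. Cd3d (0.19), Zap70 (0.15) and Skap1 (0.12) differed the other way by small amounts, Cd3e had a difference of 0.02 (-0.03 to 0.06), and the rest were between -0.16 and 0.05.

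**Figure D2:**
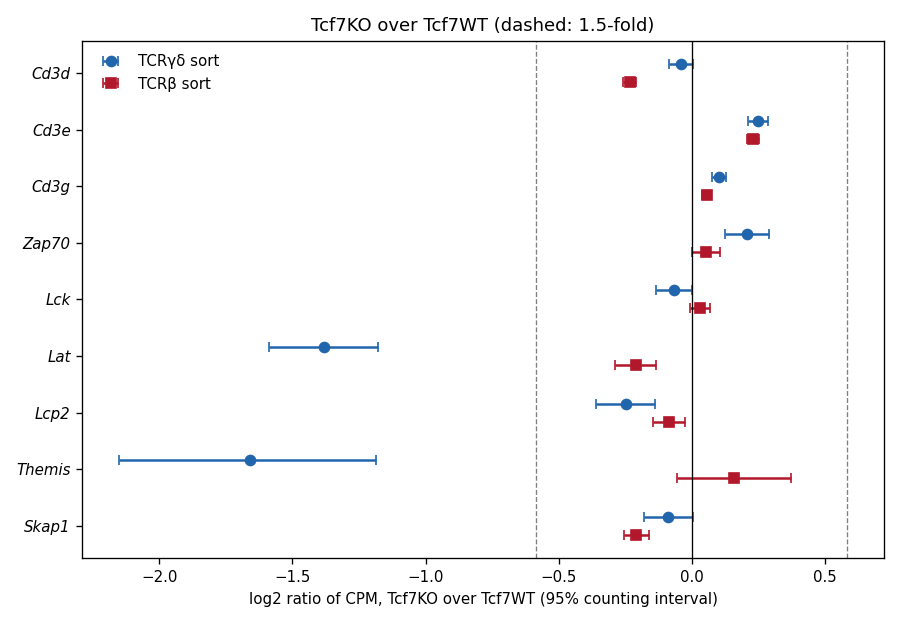
Log2 ratio of CPM of Tcf7KO over Tcf7WT for each gene in the TCRγδ sort (blue circles) and the TCRβ sort (red squares), with 95% counting intervals and dashed lines at 1.5-fold. Lat and Themis lie past the lower line in the TCRγδ sort, at -1.38 and -1.66, and no other point lies past a line.

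Between sorts within a genotype, Lat was the one member at least 1.5-fold lower in TCRγδ cells of both genotypes. In Tcf7KO cells Lat was 3.47-fold lower in TCRγδ than in TCRβ cells (-1.79, -1.98 to -1.62) and Themis was 2.79-fold lower (-1.48, -1.93 to -1.06), beside a background of 8.54% of tested genes at least 1.5-fold lower and 11.1% at least 1.5-fold higher. In Tcf7WT cells Lat was 1.54-fold lower (-0.62, -0.75 to -0.50) and the only one of the 9 past 1.5-fold, where the background was 8.27% lower and 8.43% higher. That call ended under TMM scaling, under DESeq2 size factors, with each cell weighing the same and with cells thinned. Themis was not lower there but had a ratio of 0.34 (0.05 to 0.62). Skap1 was lower in TCRγδ cells by less than 1.5-fold, with ratios of -0.35 in Tcf7KO and -0.47 in Tcf7WT. The sign was also shared by Cd3e (0.26 and 0.24), Cd3g (0.18 and 0.13), Zap70 (0.26 and 0.11), Lck (-0.24 and -0.14) and Lcp2 (-0.32 and -0.16), first in Tcf7KO and then in Tcf7WT. These comparisons use the same 4 libraries as the genotype ratios above.

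A Cd8b1 UMI was found in 638 cells (11.03%) of TCRβ Tcf7KO and 779 cells (10.2%) of TCRβ Tcf7WT, against 3 and 21 cells in TCRγδ Tcf7KO and Tcf7WT, too few to describe. Cells without a Cd8b1 UMI may still express the gene. Lat and Themis were higher in Cd8b1-positive cells of both genotypes. In TCRβ Tcf7KO, Lat stood at 306 CPM (284 to 330) in Cd8b1-positive and 113 CPM (108 to 119) in Cd8b1-negative cells, a ratio of 1.43 (1.30 to 1.56). In TCRβ Tcf7WT it stood at 376 CPM (351 to 402) in Cd8b1-positive and 131 CPM (126 to 137) in Cd8b1-negative cells, a ratio of 1.52 (1.40 to 1.63). Themis stood at 45.8 CPM in Cd8b1-positive and 16.3 CPM in Cd8b1-negative cells of Tcf7KO, a ratio of 1.49 (1.15 to 1.83), and at 45.3 and 14.4 CPM in those of Tcf7WT, a ratio of 1.65 (1.31 to 1.99). These were 2 of 9 genes at least 1.5-fold higher and 0 lower in either genotype. The background was 4.22% higher and 7.1% lower in Tcf7KO, and 3.98% higher and 10.6% lower in Tcf7WT.

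Cd3g, Cd3e and Zap70 went the other way by less than 1.5-fold. Cd3g was at 2553 CPM in Cd8b1-positive and 3163 CPM in Cd8b1-negative cells of Tcf7KO (-0.31, -0.35 to -0.27) and at 2358.5 and 3045 CPM in those of Tcf7WT (-0.37, -0.41 to -0.33). Cd3e was -0.26 in Tcf7KO and -0.23 in Tcf7WT, and Zap70 was -0.24 in both, with intervals that leave out 0. Lck was 0.12 (0.04 to 0.20) in Tcf7KO and 0.16 (0.08 to 0.24) in Tcf7WT. The intervals of Cd3d and Lcp2 hold 0 in both genotypes, and Skap1 was 0.15 in Tcf7KO and 0.03 in Tcf7WT. The Cd8b1 ratios of the genotypes were close: the difference, Tcf7KO minus Tcf7WT, was -0.08 (-0.25 to 0.09) for Lat and -0.16 (-0.63 to 0.31) for Themis. Of the 9 genes, Cd3g had a difference whose interval leaves out 0 (0.06, 0.002 to 0.117).

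**Figure D3:**
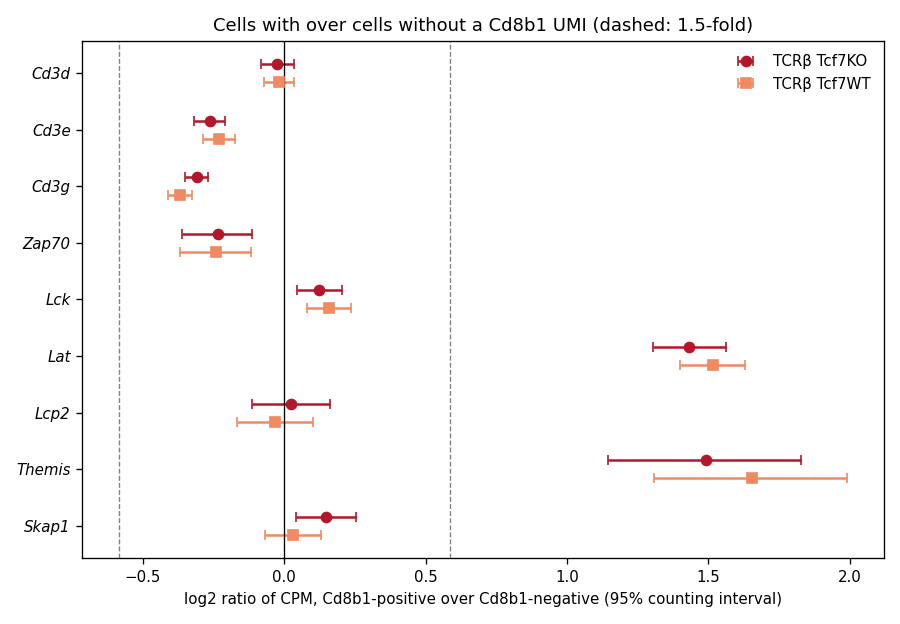
Log2 ratio of CPM in Cd8b1-positive over Cd8b1-negative cells for each gene, in TCRβ Tcf7KO (red circles) and TCRβ Tcf7WT (orange squares), with 95% counting intervals and dashed lines at 1.5-fold. Lat and Themis lie between 1.43 and 1.65, and the other 7 genes lie inside the lines in both genotypes.

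By thinned cells, 36.2% of Cd8b1-positive and 17.0% of Cd8b1-negative cells of TCRβ Tcf7KO had a Lat UMI, and 41.4% and 19.1% of those of TCRβ Tcf7WT. For Themis the shares were 7.37% and 2.62% in Tcf7KO, and 6.82% and 2.22% in Tcf7WT. Those of Cd8b1-positive cells lie between the limits of 6.38% and 7.55% from epithelial-rich cells, and those of Cd8b1-negative cells lie under both. So they cannot be told from background by this measure. The summed Themis levels of these classes lie above the 4.62 CPM that a count of 0 allows in epithelial-rich cells. Median UMIs per cell were 3018.5 in Cd8b1-positive and 2840 in Cd8b1-negative cells of Tcf7KO, and 2544 and 2420 in those of Tcf7WT. Within the Cd8b1 classes, the genotypes stayed less than 1.5-fold apart for Lat and Themis. The Tcf7KO over Tcf7WT ratio of Lat was -0.30 (-0.44 to -0.15) in Cd8b1-positive and -0.21 (-0.30 to -0.12) in Cd8b1-negative cells, and that of Themis was 0.02 (-0.40 to 0.43) and 0.18 (-0.07 to 0.43).

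Markers of circulating T cells moved with Cd8b1. Ccr7, a receptor for entry into lymph nodes, and S1pr1, the receptor for exit from them, were at least 4.07-fold higher in Cd8b1-positive cells of both genotypes. Ccr7 was at 174 CPM in Cd8b1-positive and 4.76 CPM in Cd8b1-negative cells of TCRβ Tcf7KO, and at 195 and 3.32 CPM in those of TCRβ Tcf7WT. Of TCRβ cells, 8.57% in Tcf7KO and 8.50% in Tcf7WT had a UMI of either gene, against 6 and 5 cells in TCRγδ Tcf7KO and Tcf7WT. Lat was higher in cells with than without such a UMI, with ratios of 1.20 in TCRβ Tcf7KO and 1.13 in TCRβ Tcf7WT, and so was Themis, at 0.89 and 1.09. Without those cells, Lat was still 1.34 and Themis 1.49 between Cd8b1-positive and Cd8b1-negative cells of Tcf7KO, and 1.31 and 1.73 in Tcf7WT. Over the same cells the Zap70 ratio was -0.19 in Tcf7KO and -0.04 in Tcf7WT, and the Cd3e ratio -0.16 and -0.11.

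Thy1, which encodes the surface glycoprotein CD90, split Lat and Themis in the same direction in all 4 libraries. Lat was higher in cells with than without a Thy1 UMI by log2 ratios of 0.87 (TCRγδ Tcf7KO), 1.04 (TCRγδ Tcf7WT), 1.09 (TCRβ Tcf7KO) and 0.71 (TCRβ Tcf7WT), and Themis by 1.17, 1.25, 0.87 and 1.08. The Themis ratio in TCRγδ Tcf7KO rests on 10 and 41 UMIs, with an interval of 0.004 to 2.19 that barely leaves out 0. The Thy1 class held 9.27% of TCRγδ Tcf7KO and 34.6% of TCRγδ Tcf7WT cells, and 38.1% of TCRβ Tcf7KO and 46.0% of TCRβ Tcf7WT cells. Inside each class the genotypes of the TCRγδ sort stayed apart. Lat was at 66.8 CPM in Tcf7KO and 152 CPM in Tcf7WT cells with a Thy1 UMI (-1.19, -1.66 to -0.75), and at 36.4 and 73.7 CPM in those without (-1.02, -1.27 to -0.76). Themis had ratios of -1.32 (-2.43 to -0.37) with and -1.23 (-1.84 to -0.63) without a Thy1 UMI, on 10 against 81 UMIs and 41 against 58 UMIs in Tcf7KO against Tcf7WT.

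The split by Gzma, which encodes granzyme A of cytotoxic granules, ran in different directions in different libraries. In TCRβ cells Lat was lower in cells with a Gzma UMI, at -0.67 in Tcf7KO (-0.80 to -0.54) and -0.41 in Tcf7WT (-0.59 to -0.23). In TCRγδ Tcf7KO cells Lat was also lower in Gzma-positive cells, at 35.3 CPM with and 64.9 CPM without (-0.88, -1.29 to -0.46). In TCRγδ Tcf7WT cells it was higher in Gzma-positive cells, at 117 CPM with and 80.1 CPM without (0.54, 0.29 to 0.80), and Themis was at 30.1 CPM with and 10.1 CPM without (1.57, 0.93 to 2.27). Cells with a Gzma UMI were 87.8% of TCRγδ Tcf7KO and 61.4% of TCRγδ Tcf7WT cells. Among them, Tcf7KO was lower than Tcf7WT by ratios of -1.73 for Lat (-1.97 to -1.49) and -1.98 for Themis (-2.51 to -1.48). Among cells without a Gzma UMI the Lat ratio was -0.30 (-0.73 to 0.11), and Themis had 4 UMIs in Tcf7KO and 24 in Tcf7WT, too few to separate from 0 (-1.34, -3.33 to 0.20).

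**Figure D4:**
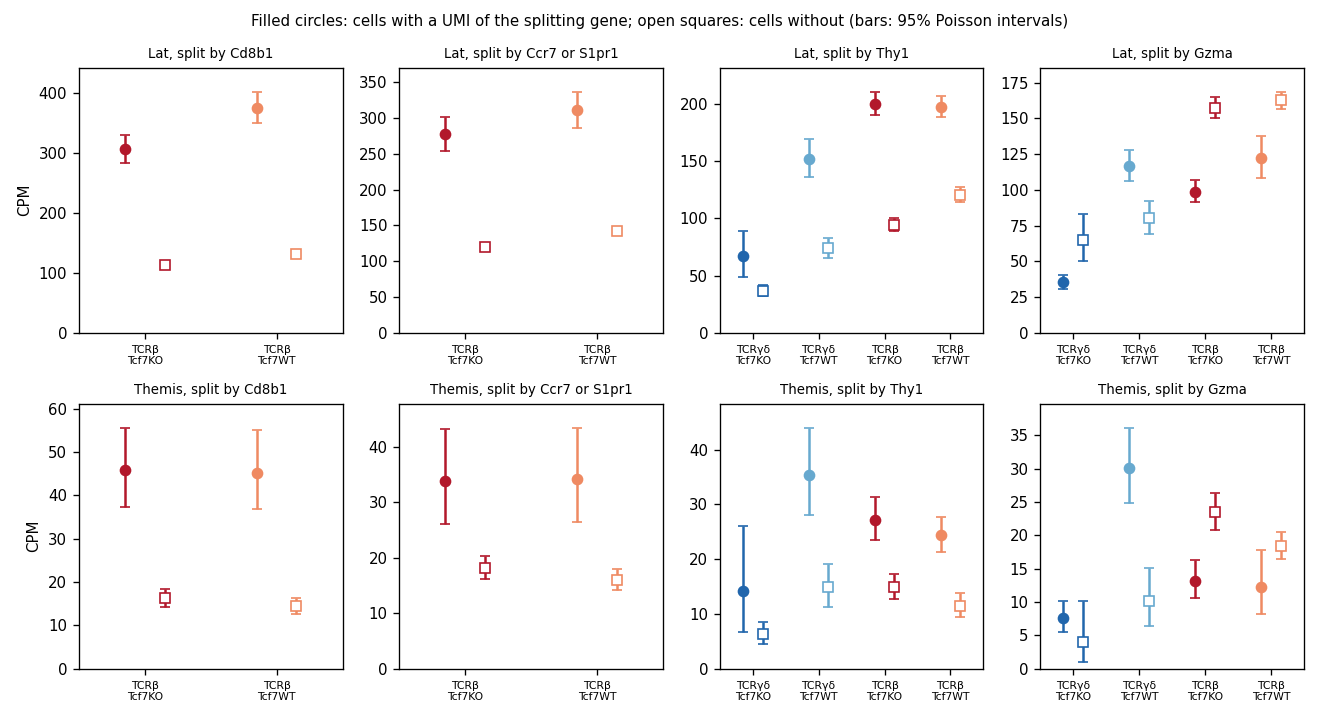
CPM of Lat (upper row) and Themis (lower row) in cells with (filled circles) and without (open squares) a UMI of Cd8b1, of Ccr7 or S1pr1, of Thy1 or of Gzma, with 95% Poisson intervals and axes from 0. The first pair of columns shows TCRβ libraries alone, since TCRγδ libraries had under 50 such cells. Filled points lie above open ones in the first 3 columns. In the Gzma column they do so for Themis in both TCRγδ libraries and for Lat in TCRγδ Tcf7WT alone, though the TCRγδ Tcf7KO ratio of Themis, 0.93 (-0.52 to 2.86), has an interval that holds 0.

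The pattern of Lat and Themis was set beside all 6011 genes with at least 50 UMIs in each of 6 populations, namely TCRγδ Tcf7KO, TCRγδ Tcf7WT and the Cd8b1-positive and Cd8b1-negative cells of both TCRβ libraries. Likeness was the root mean square difference in centred log2 CPM. Lat spanned 3.25 log2 units and its nearest genes were Arl4c (0.25), Emp3 (0.27) and Trib2 (0.27). Themis spanned 2.69 log2 units and its nearest genes were Gm19765 (0.19), A130040M12Rik (0.32) and Glipr2 (0.33). The other 7 members spanned 0.26 (Cd3d) to 0.70 (Cd3e) log2 units.

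The wider pathway was read from a list of 61 further proximal genes. In the TCRγδ sort 5 of 54 tested were at least 1.5-fold lower in Tcf7KO and 0 higher, with a median of -0.10, beside 4.97% lower and 6.9% higher and a median of -0.03 over all genes tested. Adaptors made up 4 of the 5, out of 14 adaptors tested. Cd6, a receptor that docks adaptors and restrains signalling, was at 3.34 CPM in Tcf7KO and 21.5 CPM in Tcf7WT cells (-2.68, -3.38 to -2.05). Sit1, a membrane adaptor that dampens signalling, had 18 UMIs in Tcf7KO and 49 in Tcf7WT (-1.66, -2.53 to -0.85). Trat1, an adaptor that associates with the receptor, was at 16.6 CPM in Tcf7KO and 32.6 CPM in Tcf7WT cells (-0.98), and Sh2d1a, the SAP adaptor of SLAM receptors, was at 4.04 and 8.07 CPM, with a log2 ratio interval of -1.71 to -0.31. Grap2, which encodes GADS, the bridge between LAT and SLP-76, completed the 5, at 32.7 CPM in Tcf7KO and 49.7 CPM in Tcf7WT cells (-0.60, -0.86 to -0.35), and was named after its value was seen. In the TCRβ sort 0 of 57 were 1.5-fold apart in either direction, with a median of -0.05, beside 3.8% lower and 2.13% higher and a median of -0.07 over all genes tested. The furthest there were Ubash3a, a brake on the receptor (-0.56), Txk, a Tec family kinase (0.55), Sh2d1a (-0.44) and Cd5, an inhibitory receptor (-0.41).

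Between sorts, 12 of 55 further genes were lower and 0 higher in TCRγδ than in TCRβ cells of Tcf7KO, and 7 of 56 were lower and 1 higher in Tcf7WT. Over all genes tested, 8.54% were lower and 11.1% higher in Tcf7KO, and 8.27% lower and 8.43% higher in Tcf7WT, so the lower share of the list in Tcf7WT was near the background. Among the genes tested, Sh2d1a had the lowest ratio in both (-2.88 in Tcf7KO and -2.32 in Tcf7WT). Cd6 (-2.72), Sit1 (-2.28) and Trat1 (-1.15) followed in Tcf7KO, and the adaptor Nck2 (-1.31), Ubash3a (-1.25) and the adaptor Lax1 (-0.92) in Tcf7WT. Cd5 had 253 UMIs in TCRβ Tcf7KO and 372 in TCRβ Tcf7WT but was not listed in the TCRγδ libraries, so it had no ratio between sorts. Ubash3a, with 110 UMIs in TCRβ Tcf7KO, was likewise not listed in TCRγδ Tcf7KO. The counts between sorts leave these genes out where they had no ratio. In Cd8b1-positive against Cd8b1-negative cells, 7 of 57 were higher and 3 lower in Tcf7KO, and 10 of 57 were higher and 5 lower in Tcf7WT. Over all genes tested, 4.22% were higher and 7.1% lower in Tcf7KO, and 3.98% higher and 10.6% lower in Tcf7WT, so the lower shares of the list were under the background. Cd5 (3.14 in Tcf7KO and 2.97 in Tcf7WT), Cd6 (2.48 and 2.68), Ubash3a (2.18 and 1.74) and Sit1 (1.65 in both) led. Cd5 stood at 62.5 CPM in Cd8b1-positive and 7.11 CPM in Cd8b1-negative cells of Tcf7KO, and at 82.4 and 10.5 CPM in those of Tcf7WT. The receptor chains parted. Fcer1g, which can stand in for the ζ chain, was lower in Cd8b1-positive cells (-0.74 in Tcf7KO and -0.99 in Tcf7WT), while Cd247, the ζ chain itself, was 0.32 in Tcf7KO and 0.48 in Tcf7WT, under 1.5-fold.

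**Figure D5:**
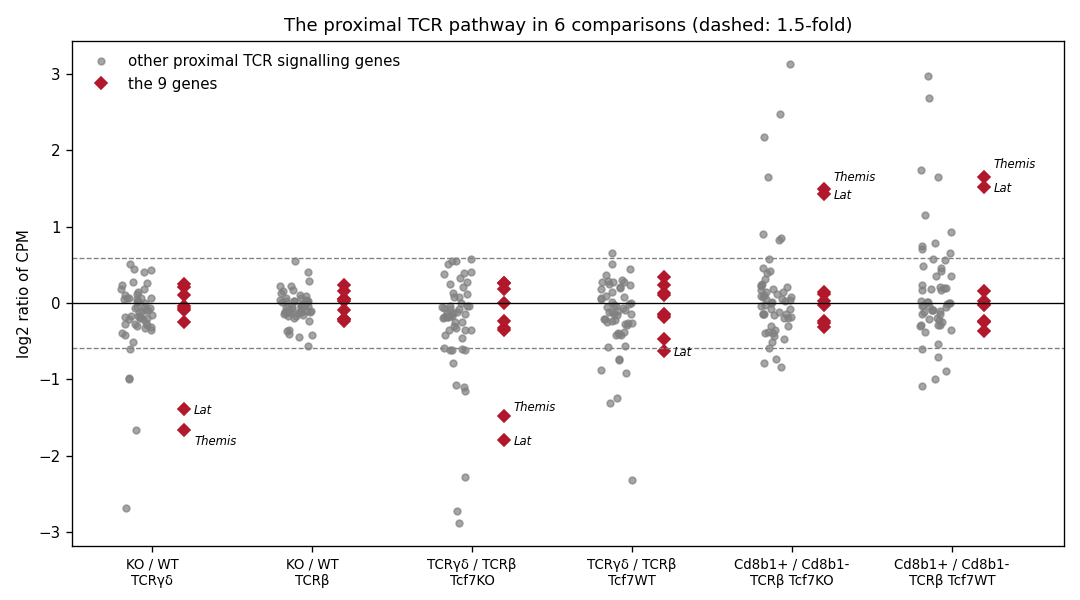
Log2 ratio of CPM in 6 comparisons for the 9 genes (red diamonds) and for the other proximal TCR signalling genes (grey dots), with dashed lines at 1.5-fold. Grey dots are genes listed on both sides with at least 50 UMIs. Lat and Themis are named where they lie past a line, from -1.79 (Lat, TCRγδ over TCRβ in Tcf7KO) to 1.65 (Themis, Cd8b1-positive over Cd8b1-negative in Tcf7WT), and no point lies past a line for Tcf7KO over Tcf7WT in the TCRβ sort.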

How the data were processed

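Colon intraepithelial lymphocytes of 4 sorted groups were profiled with a droplet-based 3′ kit of version 2, per the labels' protocols. The authors deposited 1 matrix of whole UMI counts per gene and cell for each library, with gene symbols. Seurat 3.0.0 and the builds GRCm38 and mm10 are named, without a role, per the submitters' processing notes, and the aligner is not given in the sources used here.

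UMI counts were summed over all deposited cells of a library, or of a class of cells in it, and divided by the total to give CPM. Library totals were 6195292 to 20289960 UMIs. With 1 library per group there was no test: a log2 ratio has an exact 95% interval given the sum of both counts, a level a Poisson interval and a share a Clopper-Pearson interval, all for counting error only. A gene was called at least 1.5-fold apart if listed on both sides with at least 50 UMIs over both. Cells with UMIs of at least 5 of 14 epithelial markers were called rich in epithelial markers. Thinning drew 1624 UMIs per cell, the 10th percentile of the TCRβ Tcf7WT library. Scrublet (scanpy 1.11.5) called 29 cells in TCRγδ Tcf7KO and at most 1 in each other library, so its calls were not used. Leaving out the top 5% of its scores and leaving out cells with a Ccr7 or S1pr1 UMI were added after seeing the data, as was the split of cells by these genes. The top 5% means scores strictly above the library's 95th percentile. That left out 74 (TCRγδ Tcf7KO), 52 (TCRγδ Tcf7WT), 241 (TCRβ Tcf7KO) and 344 cells (TCRβ Tcf7WT), under 5% of each library and an uneven share. Another split of cells, by a gene not named here, is not reported. Other alternatives were edgeR 4.0.16 TMM and DESeq2 1.42.0 scaling and further choices of cells. Python 3.11.15 and R 4.3.3 were used, and the interval code was tested on simulated data.

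The 9 genes and the gene lists were chosen with earlier results of these data known. All 9 are given in every comparison, and from the list of 61 further genes the 4 with the largest absolute ratio per comparison are named. Grap2, Fcer1g and Cd247 are from that list too and were named outside this rule. Promoter sequences are from RefSeq (GRCm38.p6) and coordinates from GENCODE M21.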

Additional observations from a re-analysis of the deposited data

Results flagged for a closer look

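In the TCRγδ sort, Lat and Cd3d moved in opposite directions in the 2 genotypes between cells with and without a Gzma UMI. The log2 ratio of Lat, cells with over cells without, was -0.88 in Tcf7KO and 0.54 in Tcf7WT, and the difference between these ratios was -1.42 (-1.89 to -0.96, counting error only). The ratio of Cd3d was 0.26 in Tcf7KO and -0.17 in Tcf7WT, a difference of 0.43 (0.32 to 0.54). Cd3d was not alone. Differences of its sign, with intervals that leave out 0, were 0.30 (Cd3e), 0.26 (Cd3g), 0.33 (Zap70), 0.21 (Lck), 0.34 (Lcp2) and 0.39 (Skap1). The Gzma class held 87.8% of TCRγδ Tcf7KO cells and 61.4% of TCRγδ Tcf7WT cells, which left 185 and 729 cells outside it. Epithelial-rich cells held 6.19% of the TCRγδ Tcf7KO UMIs, and their part in this split was not tested. Themis moved in opposite directions between the sorts, TCRγδ over TCRβ, with a log2 ratio of -1.48 in Tcf7KO and 0.34 in Tcf7WT. With 1 library per group none of these differences was tested, and a difference between libraries and one between genotypes cannot be told apart.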

How the results depend on the processing

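Each of 54 ratios of the 9 genes was recomputed under up to 12 alternatives, 540 values in all. Of these, 433 moved by less than their counting interval, 107 moved by more, and no ratio past 1.5-fold changed sign. Signs turned 25 times, in 8 ratios under 1.5-fold, those of Cd3d, Lck and Skap1 between TCRγδ genotypes and of Cd3d, Lcp2 and Skap1 between Cd8b1 classes. Of 120 counts of members past 1.5-fold, 116 did not change. The count of members lower in TCRγδ than in TCRβ cells of Tcf7WT was 1 (Lat) and became 0 under TMM scaling, 0 under DESeq2 size factors, 0 with the mean of per-cell CPM and 0 with cells thinned, where the Lat ratio lay between -0.63 and -0.51 over all alternatives. In the TCRγδ sort, the Tcf7KO over Tcf7WT ratio of Lat ranged from -1.38 to -1.30 and that of Themis from -1.77 (without the top 5% of Scrublet scores) to -1.02 (cells thinned). The cause was not tested. Between Cd8b1 classes Lat ranged from 1.34 to 2.01 in Tcf7KO and from 1.31 to 1.97 in Tcf7WT, highest with at least 2 Cd8b1 UMIs against none. Setting aside Scrublet's own calls was not run, since it called too few cells. No replicate could be left out, since each group is 1 library. No paired analysis was possible because the labels give 1 library per group and no replicate numbers. Depth limits Themis most, with 51 UMIs in TCRγδ Tcf7KO.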

Other observations

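Splitting cells by a Tcf7 UMI gave further values for Lat. The log2 ratio of Lat in cells with over cells without a Tcf7 UMI was 0.72 (0.12 to 1.27) in TCRγδ Tcf7KO, on 30 and 253 UMIs, and -0.27 (-0.63 to 0.07) in TCRγδ Tcf7WT. In the TCRβ sort it was 0.55 (0.43 to 0.66) in Tcf7KO and 0.23 (0.12 to 0.33) in Tcf7WT. Among TCRγδ cells without a Tcf7 UMI, Lat was at 37.7 CPM in Tcf7KO and 105 CPM in Tcf7WT, a log2 ratio of -1.48 (-1.70 to -1.26). All intervals cover counting error only.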
